A study of Mus musculus with 6 samples.

Results

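The hypoxia-inducible factor (HIF) subunits and the proteins that tie them to oxygen were followed at the RNA level in αTC1 cells, a mouse glucagonoma line that serves as a model of pancreatic α cells. The genes were picked by symbol: the α subunits Hif1a, Epas1 and Hif3a, their partner Arnt, the ubiquitin ligase subunit Vhl, the prolyl hydroxylases Egln1, Egln2 and Egln3, the asparaginyl hydroxylase Hif1an and the feedback regulator Cited2. They are 10 of the 55487 genes counted. Of the 6 libraries, 3 came from cells given G786-1089 and 3 from cells given its solvent DMSO. G786-1089 was taken here to be compound 1, which the study describes as an inhibitor of the splicing factor SMNDC1. The study also calls this compound non-selective, reports that it affected the related protein SMN and saw cell death after longer treatment. All libraries came from the same line without a genetic change named in the labels, which give no dose, duration or batch, and they are called A, B and C after the letters of the data columns. The line is a tumor line in culture and not islet tissue, and the oxygen level of the cultures is not given in the sources used here.

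In cells with enough oxygen, the prolyl hydroxylases PHD1, PHD2 and PHD3 (genes Egln2, Egln1 and Egln3) add hydroxyl groups to prolines of the HIF α subunits, a reaction that needs oxygen, iron and 2-oxoglutarate. The von Hippel-Lindau protein (Vhl) binds the hydroxylated subunit and brings in a ubiquitin ligase that marks it for degradation. When oxygen is short, the α subunit escapes, pairs with Arnt and binds DNA next to genes for glucose uptake, glycolysis and cell survival. Control of the α subunits is thus largely at the protein level, which RNA counts do not measure. Egln1 and Egln3 are themselves known as HIF targets and belong to a feedback loop.

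Depth was high in all libraries, with totals of 70150880, 94747943 and 79198429 counts in compound 1 libraries A, B and C and of 64926602, 69480568 and 59070705 with DMSO, so that every compound 1 library was deeper than every DMSO library. Levels are given as CPM, counts corrected for library size with edgeR's trimmed mean of M-values (TMM), or as the deposited FPKM, which also divide by gene length. A floor of 3 counts was worth 0.0299 to 0.0552 CPM, for counting error only. The glucagon gene Gcg, the defining product of α cells, had a mean of 3125 CPM with compound 1 and 21190 with DMSO. The summed level of 8 α cell markers was 4271 to 4971 CPM with compound 1 and 22617 to 25227 with DMSO, and the vitamin D binding protein gene Gc among them had 0 counts in all 6 libraries. Markers of δ and PP cells (Sst, Hhex and Ppy) were at 0 as well. Markers of β cells summed to between 4.82 and 15.4 CPM over all libraries, with Ins1 and Pdx1 at 0. The acinar list rested on Cela1 with 27.3 to 44.4 CPM with compound 1 and 9.01 to 21.5 with DMSO, and Prss1 and Cpa1 were at 0. The fibroblast, endothelial and macrophage markers, each list taken alone, summed to at most 1.13 CPM in any library. The part of these marker differences in the values below was not tested.

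Between compound 1 and DMSO, none of the HIF subunits and oxygen sensors passed the test. Of the 8 genes with enough counts, 0 had an adjusted p under 0.05 in either direction (edgeR's quasi-likelihood test, Benjamini-Hochberg adjustment over 15082 genes), against 6.98% of all tested genes called higher and 7.8% called lower. Without adjustment 1 of the 8, Egln1, had a p-value under 0.05, against 28.1% of all tested genes. DESeq2 called the same gene higher, as it did 12.9% of the genes to which it gave an adjusted p. Their median log2 fold change was 0.13, with 6 above 0 and 2 below, beside a median of 0.04 and 51.8% above 0 over all tested genes. In 1 of the 8, again Egln1, the 3 libraries of one treatment did not overlap those of the other, while 36.7% of all tested genes were separated in this way. With 3 libraries against 3, a difference is measured only against the spread between these libraries. For its cell culture experiments the study describes 1 batch of cells divided at random between treatments within a replicate, so the spread may be partly technical, and the data columns do not show which replicate each library belongs to. In bulk RNA, a change in every cell and a change in the share of cells that express a gene cannot be told apart.

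**Figure D1:**
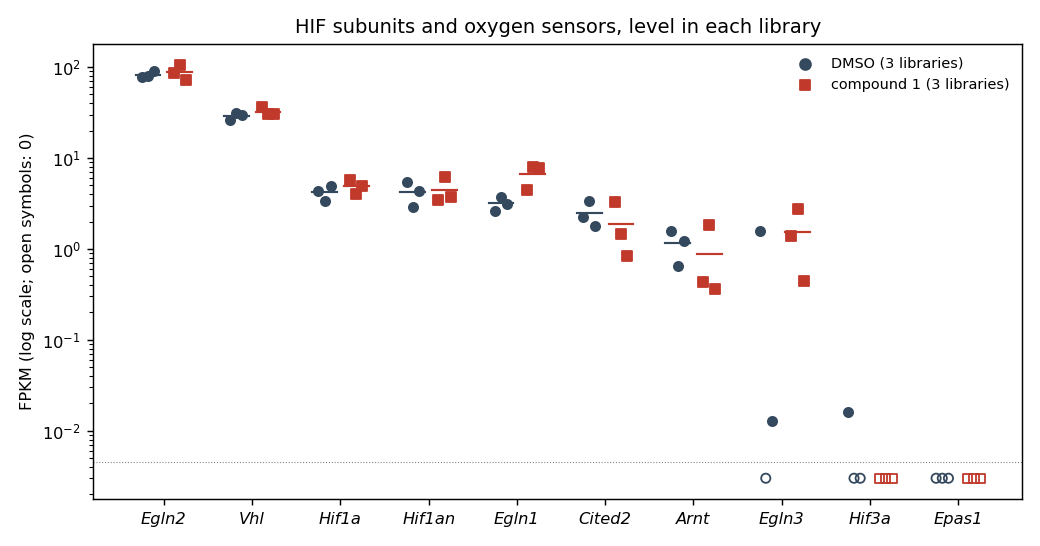
Level of each gene in each library, as deposited FPKM on a log axis, with DMSO libraries as circles, compound 1 libraries as squares and horizontal lines at the group means. Egln2 and Vhl lie above all others in every library, and open symbols under the dotted line stand for libraries at 0, among them all 6 of Epas1.

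The 10 genes spanned a wide range of levels. With DMSO, the order by mean FPKM was Egln2 (82.5 ± 7.37, SD, n = 3 libraries), Vhl (29.0 ± 2.45), Hif1a (4.23 ± 0.771), Hif1an (4.22 ± 1.31), Egln1 (3.17 ± 0.569), Cited2 (2.47 ± 0.839), Arnt (1.15 ± 0.477), Egln3 (0.526 ± 0.900), Hif3a and Epas1. The libraries of Egln2 did not overlap those of Vhl, nor those of Vhl the libraries of Hif1a. Hif1a, Hif1an, Egln1 and Cited2 overlapped each with the next in the order. Cited2 was clear of Arnt, and Arnt overlapped Egln3. With compound 1, Egln2 (88.5 ± 17.1 FPKM) and Vhl (32.5 ± 3.17) again came first, each clear of the next. Next came Egln1 with 6.71 ± 1.98 FPKM, ahead of Hif1a (4.87 ± 0.848) and Hif1an (4.45 ± 1.45), but its libraries overlapped those of Hif1a. Cited2 (1.86 ± 1.29 FPKM), Egln3 (1.53 ± 1.16) and Arnt (0.868 ± 0.819) followed and overlapped one another.

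Among the α subunits, Hif1a was the only one with counts in every library. This gene of the ubiquitous HIF-1α (ENSMUSG00000021109) lies at chr12:73901375-73947530 of GRCm38 on the forward strand and has 16 exons after merging its transcripts. It had 34.1, 23.8 and 29.1 CPM in compound 1 libraries A, B and C and 25.9, 20.2 and 29.1 with DMSO. The groups overlapped, and library B was the lowest of both. At 0.21, the log2 fold change was within its standard error of 0.23 (edgeR adjusted p = 0.622), and the 95% interval of the fold ran from 0.794 to 1.68. Of its exon bases, 8.77% overlap Gm15283 and Gm49321, so that a part of its reads cannot be assigned with certainty. The search for near-identical copies found only these 2 genes, with matches of up to 196 bases, and did not separate a copy from the overlap itself.

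Epas1, the gene of HIF-2α (ENSMUSG00000024140, chr17:86753700-86833410), had 0 counts in all 6 libraries. Hif3a (ENSMUSG00000004328, chr7:17031507-17062427), whose product is a weaker or inhibitory α subunit, had 7 counts in DMSO library A and 0 in the other libraries. Neither could be tested. If the 0 counts are taken at face value, with a floor of 3 counts per library for Epas1, the FPKM of Hif1a was at least 861-, 803- and 852-fold higher in the compound 1 libraries and at least 532-, 444- and 535-fold higher in the DMSO libraries. These bounds take each count as an independent fragment. Of the counts between 1 and 10, 78.1% were even, so the true bounds may be lower. The exons of Epas1 overlap no other gene, and no near-identical copy of them was found. Ldha, a gene of lactate formation that many cells express, was also listed at 0 in every library, and the reason was not determined. A 0 in these counts is therefore a listed value that does not by itself show that a gene was silent.

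Arnt encodes HIF-1β, the stable subunit with which the α subunits pair (ENSMUSG00000015522, chr3:95434388-95497240). Its counts were 171, 951 and 165 in compound 1 libraries A, B and C and 510, 221 and 346 with DMSO, or 2.29, 9.50 and 1.90 CPM against 8.38, 3.40 and 6.37. Compound 1 library B was the highest of all 6 and the other 2 compound 1 libraries the lowest, so the groups overlapped. At -0.41, the log2 fold change was well within its standard error of 0.73 (edgeR adjusted p = 0.778). Its interval, from 0.227- to 2.51-fold, includes large changes in either direction. Without compound 1 library B the log2 fold change of Arnt was -1.53 (edgeR adjusted p = 0.165), and without library C it was -0.04. At the level of Arnt the libraries of 1 treatment differed up to 4.99 times, and the biological coefficient of variation in the fit was 0.665.

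Vhl (ENSMUSG00000033933, chr6:113623959-113631633, 3 exons) was the most evenly expressed of the genes. It had 110.4, 92.9 and 93.5 CPM with compound 1 and 79.9, 94.4 and 90.4 with DMSO, means of 98.9 ± 9.96 and 88.2 ± 7.48 (SD, n = 3 each). The ranges overlapped, and DMSO library A was the lowest of all 6. A log2 fold change of 0.17 (standard error 0.13, edgeR adjusted p = 0.464) left an interval from 0.909- to 1.38-fold, the narrowest of the 8 tested genes. Its biological coefficient of variation was 0.134, against a median of 0.187 for genes with a log2 CPM of 5 to 7.

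**Figure D2:**
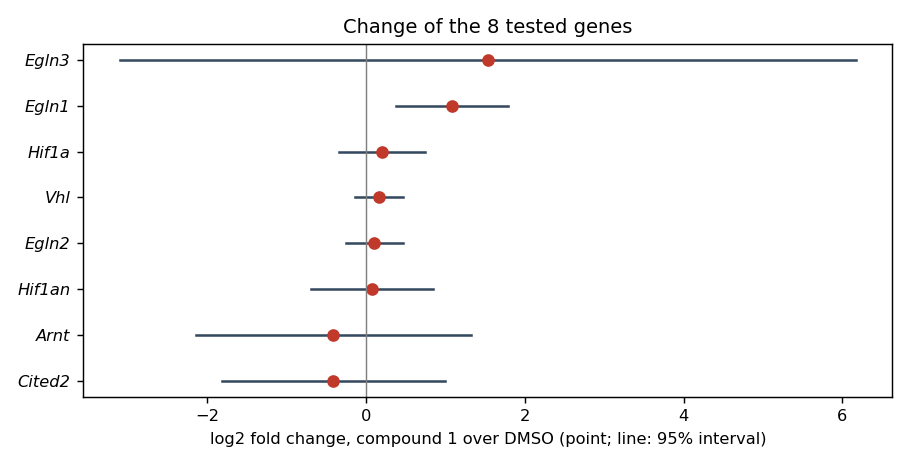
Log2 fold change of each of the 8 tested genes, compound 1 over DMSO, as points with 95% intervals from the edgeR fit. The interval of Egln1 alone lies above 0, and that of Egln3 is the widest. Those of Vhl and Egln2 are the narrowest and include 0. That of Hif1a is wider, from -0.33 to 0.75.

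The prolyl hydroxylases differed most from one another, in level and in spread. Their promoters are shown because Egln1 and Egln3 are known HIF targets, which are bound at the letters ACGTG or GCGTG. Each is read from RefSeq on GRCm38.p6, 5′ to 3′ on the strand of the gene, from 250 bases before to 50 after the start. Capitals mark ACGTG and GCGTG or, where the match is on the opposite strand, CACGT and CACGC.
Egln1 (chr8:124949205-124949504, reverse strand): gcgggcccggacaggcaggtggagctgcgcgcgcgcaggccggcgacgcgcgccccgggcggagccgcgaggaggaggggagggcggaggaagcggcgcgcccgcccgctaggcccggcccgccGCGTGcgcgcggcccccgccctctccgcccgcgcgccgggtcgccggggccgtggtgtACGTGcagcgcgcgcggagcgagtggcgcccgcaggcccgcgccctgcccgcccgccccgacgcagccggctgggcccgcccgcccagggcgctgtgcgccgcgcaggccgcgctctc
Egln2 (chr7:27166753-27167052, reverse strand): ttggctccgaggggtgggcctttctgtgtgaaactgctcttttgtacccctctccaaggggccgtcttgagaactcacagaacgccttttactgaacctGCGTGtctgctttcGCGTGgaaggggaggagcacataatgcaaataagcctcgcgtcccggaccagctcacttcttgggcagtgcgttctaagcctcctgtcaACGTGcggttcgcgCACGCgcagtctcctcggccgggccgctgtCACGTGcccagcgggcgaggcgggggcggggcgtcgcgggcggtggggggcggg
Egln3 (chr12:54203825-54204124, reverse strand): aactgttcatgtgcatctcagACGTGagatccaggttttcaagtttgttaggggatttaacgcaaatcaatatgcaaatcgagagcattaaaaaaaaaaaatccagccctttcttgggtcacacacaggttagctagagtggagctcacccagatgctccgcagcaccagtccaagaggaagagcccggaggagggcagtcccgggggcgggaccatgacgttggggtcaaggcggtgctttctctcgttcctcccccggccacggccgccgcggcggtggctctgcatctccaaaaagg
The Egln1 window holds GCGTG 126 bases and ACGTG 68 bases before the start. Egln2, for its longer transcript, holds 3 matches to each, among them a CACGTG at the start, which contains ACGTG on both strands. Egln3 holds ACGTG 229 bases before the start. Of the 10 genes, 9 had an entry in the promoter table (Epas1 had none), and 7 of these 9 held at least 1 match. Either set of letters is also present in 43.8% of the 32851 promoters in the table, ACGTG in 19.6% and GCGTG in 32.4%, and CACGTG in 7.15%. A match describes the sequence and is not evidence of binding.

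Egln1 encodes PHD2, the main prolyl hydroxylase of HIF-1α in most cells (ENSMUSG00000031987, chr8:124908587-124949324, 5 exons, reverse strand). Its counts were 1304, 3084 and 2666 in compound 1 libraries A, B and C and 625, 958 and 664 with DMSO. On the CPM scale these were 17.4, 30.8 and 30.7 against 10.3, 14.7 and 12.2, with means of 26.3 ± 7.70 and 12.4 ± 2.24 (SD, n = 3 each). Every compound 1 library was above every DMSO library, and compound 1 library A came closest to them. The fold was 2.12, with a 95% interval of 1.30 to 3.47 and a log2 fold change of 1.08 (standard error 0.30). This did not pass the test over all genes (edgeR adjusted p = 0.0565), and an exact two-sided permutation test gave p = 0.1, the smallest that 3 libraries against 3 allow. The study filtered genes with splicing events by DESeq2, at an adjusted p up to 0.1 and a log2 fold change of 1 or more in size. With these cutoffs applied to the edgeR values instead, Egln1 passed as 1 of 943 genes higher with compound 1 (6.25% of those tested). The direction was the same under all 16 alternatives, with log2 fold changes of 0.86 to 1.31, and the adjusted p was under 0.05 under 6 of them. It was 0.00567 with DESeq2, 0.0361 with limma-trend on log2(FPKM + 1) with an FPKM minimum and 0.116 without that minimum. Without compound 1 library A the log2 fold change was 1.31 (edgeR adjusted p = 0.0330), while the other 5 libraries, each left out in turn, gave 0.96 to 1.22 with an edgeR adjusted p of up to 0.170. After thinning the counts of every library to the lowest total, it was 1.10 (edgeR adjusted p = 0.0531).

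**Figure D3:**
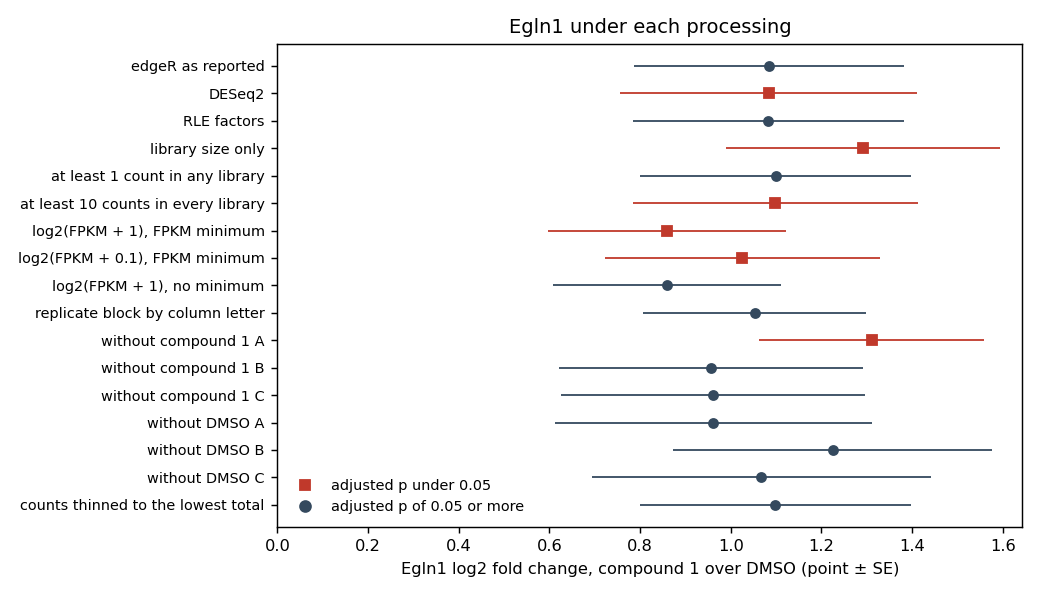
Log2 fold change of Egln1, compound 1 over DMSO, with its standard error as a line, in the fit reported and under each alternative. All points lie between 0.86 and 1.31, and squares mark the 6 alternatives with an adjusted p under 0.05.

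Egln2, the gene of PHD1 (ENSMUSG00000058709, chr7:27158658-27166802), was the most abundant of the 10 genes. It had 209.5, 254 and 175 CPM in compound 1 libraries A, B and C and 185, 192 and 218 with DMSO. Compound 1 held both the highest and the lowest library, and the groups overlapped. A log2 fold change of 0.10 (standard error 0.15, edgeR adjusted p = 0.722) had an interval of 0.838- to 1.38-fold and turned to -0.04 without compound 1 library B. Of its exon bases, 0.5% overlap Cyp2t4.

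Egln3, the gene of PHD3 (ENSMUSG00000035105, chr12:54178981-54203860, 5 exons), was the least reproducible. Its counts were 302, 796 and 112 with compound 1 and 276, 0 and 2 with DMSO. All 3 compound 1 libraries and DMSO library A held at least 112 counts, while DMSO libraries B and C were at or under the floor of 3. In CPM this was 4.04, 7.95 and 1.29 against 4.54, 0 and 0.04, so the groups overlapped through DMSO library A. At 1.54, the log2 fold change was within its standard error of 1.94 (edgeR adjusted p = 0.678). Without DMSO library A the fitted value was 7.85 (edgeR adjusted p = 0.0506), but this value sets compound 1 against libraries at or near 0. Over the other alternatives the log2 fold change was between 0.77 and 4.78, and in all of them the adjusted p was above 0.05. Genes as low as Egln3 varied widely in these libraries: genes with a log2 CPM of 1 to 3 had a median biological coefficient of variation of 0.607, and Egln3 had 1.55.

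**Figure D4:**
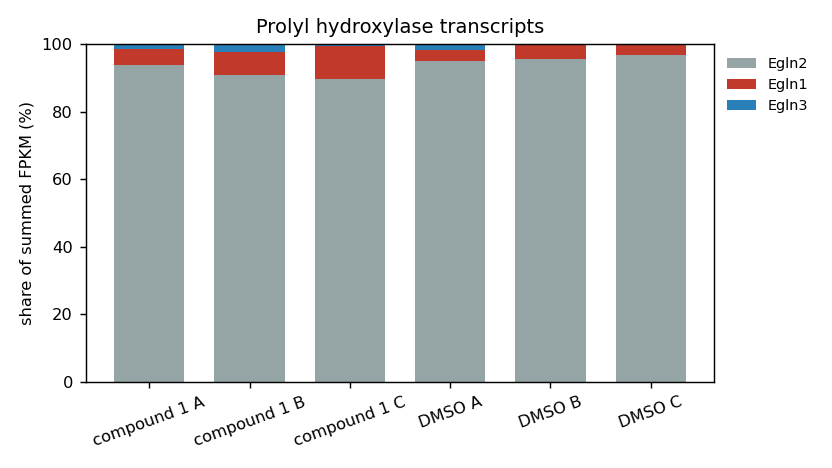
Share of Egln2, Egln1 and Egln3 in the summed FPKM of the 3 genes, in percent, for each library. Egln2 makes up at least 89.8% in every library, and the share of Egln1 is at least 4.78% with compound 1 and at most 4.50% with DMSO.

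The makeup of the prolyl hydroxylase transcripts was compared per length, as the share of each gene in the summed FPKM of the 3. Egln1 made up 4.78%, 6.75% and 9.69% in compound 1 libraries A, B and C and 3.24%, 4.50% and 3.33% with DMSO, or 7.07 ± 2.47% and 3.69 ± 0.705% (SD, n = 3 each). The groups did not overlap, but compound 1 library A and DMSO library B were close. The share of Egln2 was 93.7%, 90.9% and 89.8% with compound 1 and 94.8%, 95.5% and 96.7% with DMSO. For each of these shares an exact two-sided permutation test gave p = 0.1, the smallest possible. The 2 shares are parts of the same sum, so the second test largely repeats the first. Both also draw on the same Egln1 values, which did not overlap between treatments. The summed FPKM itself was 96.8 ± 18.6 with compound 1 and 86.2 ± 6.86 with DMSO (exact permutation p = 0.7, SD of 3 libraries). Relative to its substrate Hif1a, Egln1 had an FPKM ratio of 1.45 ± 0.610 with compound 1 and 0.780 ± 0.282 with DMSO, ranges that overlap (SD, n = 3 each, exact permutation p = 0.2). These shares describe transcripts, not enzyme amounts or activity.

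Hif1an encodes FIH, which hydroxylates an asparagine of the α subunit and so blocks the binding of coactivators (ENSMUSG00000036450, chr19:44562850-44576274). It had 23.6, 41.1 and 25.5 CPM with compound 1 and 37.0, 19.4 and 28.9 with DMSO. High and low libraries occurred in both groups. The log2 fold change of 0.08 (standard error 0.32, edgeR adjusted p = 0.904) had an interval of 0.622- to 1.80-fold, and its sign turned without compound 1 library B (-0.21) or DMSO library B (-0.14).

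Cited2 competes with HIF-1α for the coactivators p300 and CBP and is a gene with a single merged exon (ENSMUSG00000039910, chr10:17723218-17725674). Its levels were 8.88, 3.85 and 2.24 CPM with compound 1 and 6.02, 9.11 and 4.71 with DMSO. The lowest 2 libraries were of compound 1, but compound 1 library A was second only to DMSO library B. At a log2 fold change of -0.41 (standard error 0.59, edgeR adjusted p = 0.721) the interval ran from 0.286- to 1.99-fold. Without compound 1 library A the log2 fold change was -1.12 (edgeR adjusted p = 0.257), and without library C -0.05.

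For Egln1 and Vhl, which had the smallest p-values of the 10 genes, the genes with the most alike pattern were sought among the 7899 genes whose log2 CPM averaged 3 or more. Likeness was the root mean square difference of log2 CPM, centred per gene, over the 6 libraries. Among those closest to Egln1 were Net1 (0.162) and Amacr (0.162), with log2 fold changes of 0.89 and 0.96, of which that of Amacr passed the test (edgeR adjusted p = 0.0436). Closest to Vhl were Ubxn4 (0.04), Brcc3 (0.04) and Nxt2 (0.06). A difference of at most 0.25 from Egln1 was found for 0.836% of the genes and from Vhl for 18.8%.

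Beside Vhl itself, some subunits of its ligase were lower with compound 1. Of 6 genes of the ligase and of the enzymes that remove ubiquitin in this pathway, 0 were called higher and 2 lower. Over all tested genes, 6.98% were called higher and 7.8% lower. Calls in either direction made up 26% of genes with a log2 CPM of 5 to 7 and 49.2% of those over 7. The list had a median log2 fold change of -0.32, against 0.04 over all tested genes. Elob, the gene of elongin B, fell from 806 ± 41.6 to 456 ± 31.2 CPM (SD, n = 3 each), a log2 fold change of -0.82 (standard error 0.08, edgeR adjusted p = 0.0012) that passed under all 16 alternatives. Eloc, the gene of elongin C, which binds the VHL protein directly, had 150.0, 83.1 and 84.2 CPM with compound 1 and 193, 238 and 204 with DMSO. It passed with a log2 fold change of -1.0 (standard error 0.25, adjusted p = 0.0403 in edgeR), but the adjusted p was above 0.05 under 8 of 16 alternatives and reached 0.119 without DMSO library B. As a replicate block, the column letters gave 0.0773. The RING protein gene Rbx1 had a log2 fold change of -0.51 (edgeR adjusted p = 0.0690), the scaffold gene Cul2 -0.14 and the deubiquitinase genes Usp20 and Usp33 0.18 and 0.94. Elongins B and C also serve other ligases and transcription elongation.

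Among 14 genes of proteins that bind HIF or its hydroxylases, 13 could be tested, and their median log2 fold change was 0.18. Calls were frequent among abundant genes: 49.2% of all tested genes with a log2 CPM over 7 passed in either direction. Of the 13, 1 was called higher and 5 were called lower, against 6.98% and 7.8% of all tested genes. The split depended on the scaling: when library size alone replaced TMM, 3 were called higher and 3 lower. The 5 called lower were Hsp90ab1 (-0.57, edgeR adjusted p = 0.00405), Hsp90aa1 (-0.80, 0.00557), Rack1 (-0.47, 0.00795), Ptges3 (-0.89, 0.0122) and Fkbp8 (-0.60, 0.0325). HSP90 shields HIF-1α from degradation and p23 (Ptges3) is its cochaperone, RACK1 competes with HSP90 and promotes degradation, and FKBP8 binds PHD2. Hsp90ab1 was the most abundant, with 1310, 1421 and 1176 CPM with compound 1 and 1926, 1937 and 1947 with DMSO, groups far apart. All of these have many other clients or roles. Siah1b, a ubiquitin ligase gene whose products act on prolyl hydroxylases, was the 1 called higher, with 151, 105 and 125 CPM against 46.9, 57.3 and 64.0 and a log2 fold change of 1.18 (standard error 0.18, edgeR adjusted p = 0.00817). It is a close paralog of Siah1a, at 3.90 ± 1.97 and 2.55 ± 0.43 CPM (SD, n = 3 each), and reads of the shared sequence may not be split correctly. The coactivator genes Crebbp (0.79, edgeR adjusted p = 0.0631) and Ep300 (0.93, 0.442) did not pass, nor did Cited1, a paralog of Cited2 (-0.92, 0.0501), or P4htm, the membrane-bound relative of the prolyl hydroxylases (1.03, 0.0621).

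Other factors of the family of Hif1a and Arnt, the bHLH-PAS proteins, were mostly at or near 0. Of 12 such genes, 3 reached enough counts: Clock (log2 fold change 1.21, edgeR adjusted p = 0.205), Arntl (0.43, 0.561) and Sim1 (-0.74, 0.415). Of these 3, 0 passed the test. Arnt2, the closest relative of Arnt and a possible alternative partner, reached at most 0.05 CPM in 1 library and was at 0 in the other libraries.

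**Figure D5:**
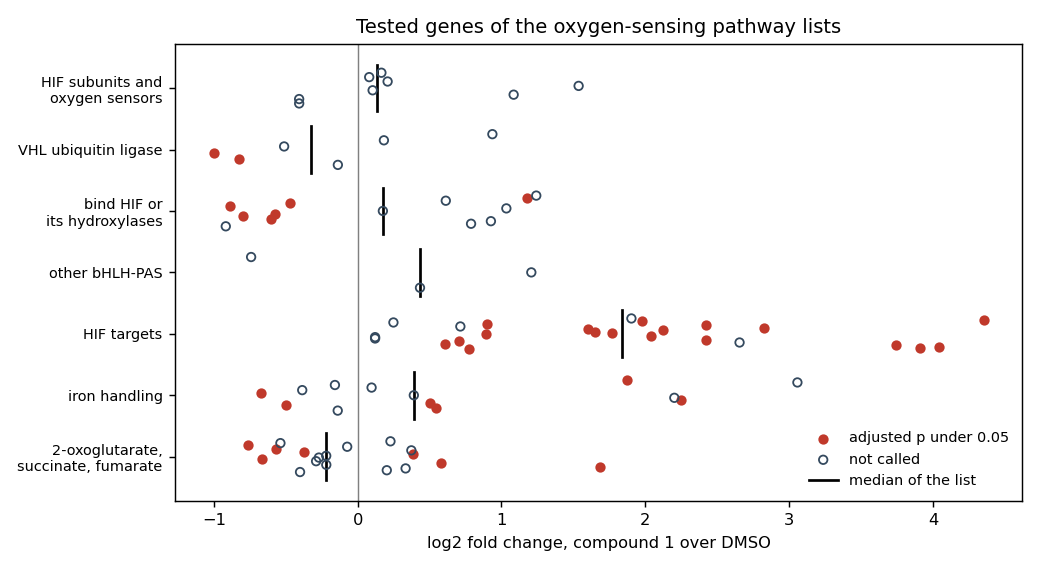
Log2 fold change of each tested gene, compound 1 over DMSO, by list, with filled circles for an adjusted p under 0.05 in edgeR, open circles for the rest and a vertical line at the median of each list. The 24 tested HIF targets all lie above 0 with a median of 1.84, while the HIF subunits and oxygen sensors have a median of 0.13 and no filled circle.

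Genes that HIF is known to activate were mostly higher with compound 1. Of 30 such genes in the table, 24 could be tested, 18 were called higher and 0 lower. Over all tested genes, 6.98% were called higher and 7.8% lower. All 24 log2 fold changes were above 0, and their median was 1.84. P4ha2, a collagen prolyl hydroxylase, had 2.12 (standard error 0.09, edgeR adjusted p = 0.000102), the mitophagy receptor Bnip3 3.74, the phosphofructokinase Pfkl 2.42 and the repressor Bhlhe40 4.04. These targets were chosen with earlier results of the libraries known, and the same libraries gave the values of Egln1 and Egln3. The log2 fold change of Egln1, 1.08, was under the median of this list, and the targets Vegfa (1.90, edgeR adjusted p = 0.245) and Ddit4 (2.66, 0.345) resembled Egln3 (1.54, 0.678) in their large standard errors of 0.94, 1.61 and 1.94. Vegfa and Ddit4 were chosen for mention after their values were seen.

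Prolyl hydroxylases hold iron, and genes of iron handling moved in both directions. Of 13 tested, 4 were called higher and 2 lower, against 6.98% and 7.8% of all tested genes. Their median log2 fold change was 0.39. Of all tested genes with a log2 CPM of 5 to 7, 26% were called in either direction, and of those over 7, 49.2%. Tfrc, the transferrin receptor that brings iron into the cell, had 115, 81.5 and 67.9 CPM with compound 1 and 19.3, 25.6 and 27.3 with DMSO. All compound 1 libraries were well above the DMSO libraries, with a log2 fold change of 1.87 (standard error 0.25, edgeR adjusted p = 0.00458). Hmox1, heme oxygenase, which frees iron from heme, rose with a log2 fold change of 2.25 (edgeR adjusted p = 0.000241). The ferritin chains for iron storage went apart: Ftl1 rose from 1916 ± 50.5 to 2722 ± 87.3 CPM and Fth1 fell from 1866 ± 55.5 to 1321 ± 9.36 CPM (SD, n = 3 each). Both ferritin genes have near-identical processed pseudogenes, which can share their reads. Outside the rule for named genes, the remaining calls were Fbxl5, the iron-sensing ligase subunit that targets iron regulatory protein 2 (0.55, edgeR adjusted p = 0.0315), and Pcbp1, an iron chaperone (-0.67, 0.0106).

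The cosubstrate of the hydroxylases is 2-oxoglutarate, and succinate and fumarate inhibit them. The median log2 fold change of 18 genes of these metabolites was -0.22. Of all tested genes with a log2 CPM of 5 to 7, 26% were called in either direction, and of those over 7, 49.2%. Among the 18, 3 were called higher and 4 lower, against 6.98% and 7.8% of all tested genes. These counts were not stable, with 1 called higher whichever library was left out, and 1 lower without DMSO library A or C, with a replicate block or with library size only. Sdhb, the iron-sulfur subunit of succinate dehydrogenase, fell from 535 ± 16.8 to 316 ± 17.0 CPM (SD, n = 3 each), a log2 fold change of -0.76 that passed under all 16 alternatives. The other subunit genes of this enzyme, Sdha, Sdhc and Sdhd, did not pass. Ogdh, whose enzyme consumes 2-oxoglutarate, had -0.57 (edgeR adjusted p = 0.0137), and Idh1, whose enzyme makes it in the cytosol, -0.66 (0.0338). Ogdh passed under 11 and Idh1 under 8 of the 16 alternatives, and Idh1 did not pass with any library left out (edgeR adjusted p up to 0.105) or with the replicate block (0.0905), nor Ogdh with the block (0.0628). The aminotransferase gene Got1 rose, with a log2 fold change of 0.58 (edgeR adjusted p = 0.00516). Further calls of the list, outside the rule for named genes, were Idh3b (0.39, edgeR adjusted p = 0.0371), higher, and Idh3g (-0.37, 0.0394), lower. No metabolite, protein or oxygen level was measured in these libraries.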

How the data were processed

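RNA of 6 libraries, 3 from αTC1 cells with compound 1 and 3 with DMSO, was prepared with Smart-seq2 and Nextera XT, which do not keep the strand, and sequenced from both ends. The authors aligned the reads to GRCm38 with STAR (2.7.9a in the submitters' processing notes), counted alignments on Ensembl transcripts with summarizeOverlaps irrespective of strand and deposited raw counts, added up for each gene. FPKM values were deposited by the authors too, and their calculation is not given in the sources used here. Even numbers made up 78.1% of the counts between 1 and 10, so counts do not always stand for independent fragments. Floors cover counting error only. The intervals of the fold changes come from the edgeR fit and also include the spread between libraries.

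The test was run in edgeR 4.0.16 under R 4.3.3: filterByExpr (minimum count 10, minimum total 15), TMM factors and the quasi-likelihood test, with treatment as the only term. Benjamini-Hochberg adjustment was over all 15082 tested genes. A call was an adjusted p under 0.05. Standard errors were derived from the log2 fold change and its F statistic. Levels of different genes were compared by FPKM. The alternatives were DESeq2 1.42.0, RLE factors, library size only and 2 other count filters. Others were limma-trend 3.58.1 on log2 of the deposited FPKM with a pseudocount of 1 or 0.1 and the study's filter, applied to the edgeR values. Further alternatives were a replicate block by column letter and each library left out in turn. Thinned counts were added after seeing the data. The fit was also run on simulated counts, with a spread set by level and not gene by gene. The outcome is not given here, and such a run cannot speak for genes as variable as Egln3.

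The letters of the columns do not say which numbered replicate of the labels each column is. Gene positions match GENCODE vM21 for all 10 genes. Copies of at least 100 bases at 95% identity were sought with blastn 2.17.0, and promoters were read from RefSeq. All 10 genes are named. In each other list, up to 4 tested genes with the smallest p were named, plus genes contrasted with them by direction, and for 2 of the 10 genes the 3 most alike genes. Some genes that these rules name are not reported here. The genes and the lists were chosen with earlier results of these data known. Aldoa stands for 2 rows with that name, of which the more abundant was used.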

Additional observations from a re-analysis of the deposited data

How the results depend on the processing

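Of the 8 tested genes, 1 (Egln1) was called higher with DESeq2, with library size only, with at least 10 counts in every library, with limma-trend on log2(FPKM + 1) or log2(FPKM + 0.1) above the FPKM minimum and by the study's filter. Leaving out each library in turn gave 0 to 1 such calls, the 1 without compound 1 library A. In every alternative 0 were called lower. Over all genes, 1857 were called higher and 1810 lower with DESeq2, 1630 higher and 796 lower with library size only, 943 higher and 628 lower by the study's filter, and 545 to 613 higher and 706 to 943 lower with a library left out, where fewer samples are tested. With the replicate block by column letter, 524 genes were called higher and 708 lower, 0 of the 8 genes were called and Egln1 had a log2 fold change of 1.05 (edgeR adjusted p = 0.0740). Deviations from the group means were not shared by libraries of 1 letter (correlations of 0.02, 0.003 and 0.03 across genes). The letters were therefore not taken to pair them. Low genes were noisy, with a median biological coefficient of variation of 0.921 under a log2 CPM of 1. Such noise lowers these correlations, so they cannot exclude a pairing. Of the iron handling genes, 2 were called higher and 0 lower by the study's filter, which asks for a larger change. Of the genes that bind HIF or its hydroxylases, 1 to 3 were called higher and 0 to 6 lower over the alternatives, with 3 higher by DESeq2 and 2 higher and 0 lower by the study's filter. Of the 2-oxoglutarate genes, 1 to 3 were called higher and 0 to 5 lower, with 1 and 0 by the study's filter, and of the VHL ligase genes 0 to 1 higher and 1 to 3 lower. HIF targets called higher numbered 13 to 20 over the alternatives, and 14 to 17 with a library left out. The sign turned, with a library left out, for Egln2 (-0.043 to 0.229), Hif1an (-0.21 to 0.31) and Arntl (-0.042 to 0.710), none of which was called in any alternative. The cause was not tested for any of these. With 3 libraries a group and biological coefficients of variation of 0.562 to 1.55, the values of Cited2, Arnt and Egln3 leave changes of several-fold undetected, and the 0 counts of Epas1 allow levels up to the floor of 3 counts at best.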
